A study of Mus musculus with 8 samples.

Results

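A set of 10 components of TGF-beta and bone morphogenetic protein (BMP) signaling were followed in RNA-seq counts of mouse primary hepatocytes. They were the ligands Tgfb1 and Tgfb3, the receptors Tgfbr1 and Tgfbr2, the signal transducer Smad3, the inhibitory SMADs Smad6 and Smad7, and the SMAD-responsive genes Id1, Id2 and Id3. The genes were taken by symbol from the 56748 genes of the count table, all 10 were found, and all 10 were among the 14279 genes that passed the filter on low counts.

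The hepatocytes came from C57BL/6J mice, given as 7 to 8 weeks old, that carried floxed alleles of both Yap and Taz. The study's methods give this as the age at virus injection, and elsewhere name mice of 8 weeks for hepatocyte isolation. YAP and TAZ (gene Wwtr1) are transcriptional co-activators that respond to the mechanics of the cell's surroundings. Knockout (KO, Yap/TazHepKO) mice received AAV8-TBG-Cre and control mice received AAV8-TBG-Null, so the control group, called WT as in the labels, carried the same floxed alleles without Cre. The study's methods add a ROSA26-LSL-tdTomato reporter to this line. The TBG promoter drives Cre in hepatocytes, and other liver cells that passed the isolation would keep both genes. Hepatocytes were isolated 10 days after the virus by collagenase perfusion with a density gradient, and were cultured for 24 h on collagen-coated hydrogels of 1 kPa (soft) or 20 kPa (stiff), standing for healthy and diseased liver. The sources differ on the sex of the mice, female in the design text and male in the protocols and methods. Each of the 4 groups had 2 libraries, and the labels do not say whether these came from separate mice or cultures, so every p-value measures the spread between these libraries, which may be technical.

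TGF-beta ligands bind a type II receptor (Tgfbr2), which recruits and phosphorylates the type I receptor (Tgfbr1), which in turn phosphorylates SMAD2 and SMAD3. BMP ligands act through related receptors on SMAD1, SMAD5 and SMAD9, and both branches share SMAD4. SMAD6 and SMAD7 block the receptors and are themselves induced by the pathway, and the Id genes, which encode inhibitors of basic helix-loop-helix transcription factors, are classical BMP targets. In the liver, TGF-beta is known for activating stellate cells and for restraining hepatocyte growth, and BMP signaling in hepatocytes controls hepcidin, the hormone of iron balance.

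The libraries held 18324083 to 26442310 counts, so that the limit set by 3 counts lay between 0.113 and 0.164 CPM (counts divided by the scaled library size). Yap1 was present at 1720 to 2913 counts in the 4 WT libraries and at 606 to 747 in the 4 KO libraries, and Wwtr1 at 748 to 1325 and at 277 to 410. The hepatocyte markers, led by Alb, summed to 88531 to 92888 CPM in WT and 61605 to 62209 CPM in KO libraries. The sum is mostly Alb, which was lower in KO on both hydrogels, and other markers of the list moved differently. Markers of other liver cells were present at far lower summed levels and moved between groups. The 11 endothelial markers summed to 111.2 to 111.7 CPM in WT soft, 73.8 to 77.1 in WT stiff, 138.7 to 141.0 in KO soft and 147.2 to 159.0 in KO stiff libraries. The same order of groups was seen for the 11 Kupffer cell and macrophage markers, at 97.9 to 102.7, 68.2 to 74.7, 143.1 to 143.9 and 144.8 to 147.2 CPM. The 12 stellate cell and fibroblast markers summed to 38.9 to 39.7, 28.7 to 30.2, 55.5 to 57.2 and 56.5 to 59.4 CPM. The 8 cholangiocyte markers summed to 571 to 603 and 622 to 626 CPM in WT soft and WT stiff and to 341 to 367 CPM in KO libraries, and Cftr was at 0 in all 8 libraries. No marker of these 4 other cell types or of hepatocytes was at 0 in all libraries apart from Cftr.

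**Figure D1:**
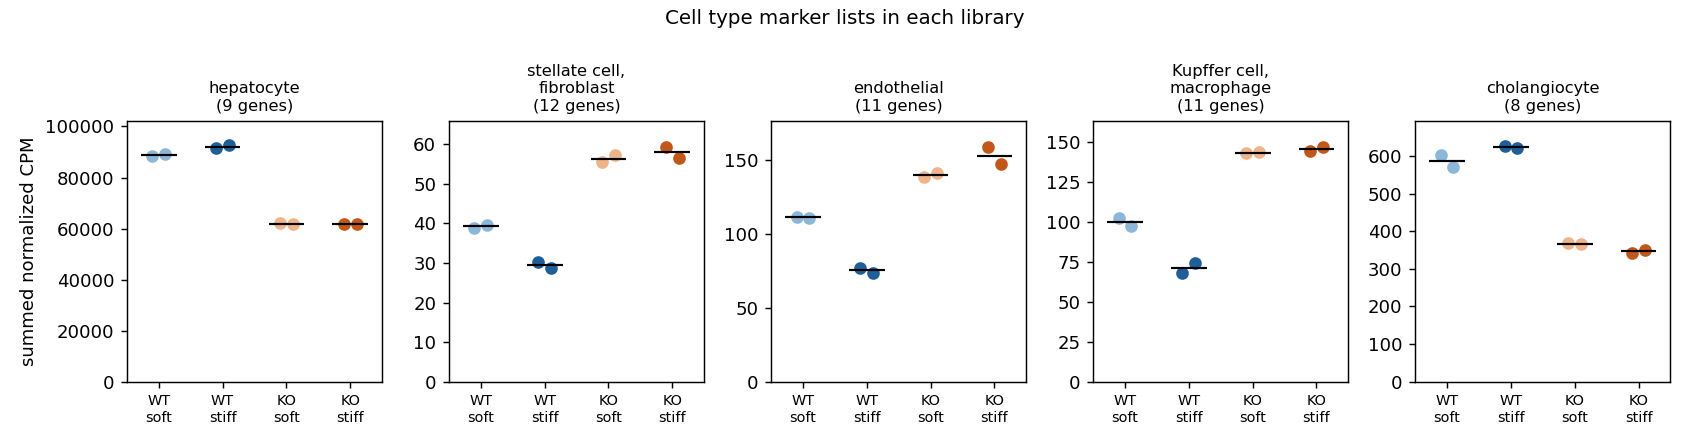
Summed CPM of each marker list (y axis) in the 8 libraries, grouped by genotype and stiffness, 1 point for each library. Endothelial markers lie between 73.8 and 77.1 CPM in WT stiff libraries and between 147.2 and 159.0 CPM in KO stiff libraries.

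Values below are CPM scaled by the trimmed mean of M values. A gene was called where edgeR's quasi-likelihood test gave a Benjamini-Hochberg adjusted p under 0.05 over all 14279 tested genes and the absolute log2 fold change was over 0.5. In WT hepatocytes, 4 of the 10 genes were called between stiff and soft hydrogel, Tgfb1 and Smad7 higher and Id1 and Id2 lower on stiff, beside 19.3% of all tested genes (10.0% higher, 9.26% lower). In KO hepatocytes 0 of 10 were called, beside 0.0210% of all tested genes (0.0140% higher, 0.00700% lower). The edgeR test gave an unadjusted p under 0.05 for 3 of the 10 (Tgfbr1, Smad3 and Id2), and DESeq2 also called 0. No share over all tested genes was taken for unadjusted p-values, here or below. The stiffness response itself differed between genotypes, by the interaction term, for 4 genes (Tgfb1 and Smad7 lower in KO, Id1 and Id2 higher), beside 16.8% of all tested genes (8.64% higher, 8.21% lower). Between KO and WT on soft hydrogel 0 of 10 were called, beside 6.67% (2.02% higher, 4.65% lower), with an edgeR unadjusted p under 0.05 for 2 (Id2 and Id3) and 0 called by DESeq2. On stiff hydrogel 6 of 10 were called, Smad3, Id1 and Id2 higher and Tgfb1, Smad7 and Id3 lower in KO, beside 28.7% (13.7% higher, 15.0% lower). Without the minimum fold, an adjusted p under 0.05 was reached in edgeR by 7 of 10 in WT (41.0% of all tested genes), 0 in KO (0.0210%), 6 in the interaction (29.4%), 2 between genotypes on soft (18.4%) and 7 on stiff hydrogel (51.1%). The 5 comparisons share libraries, so their values are set side by side and not read as independent. In these bulk samples, fewer cells of a type and less RNA per cell cannot be told apart.

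**Figure D2:**
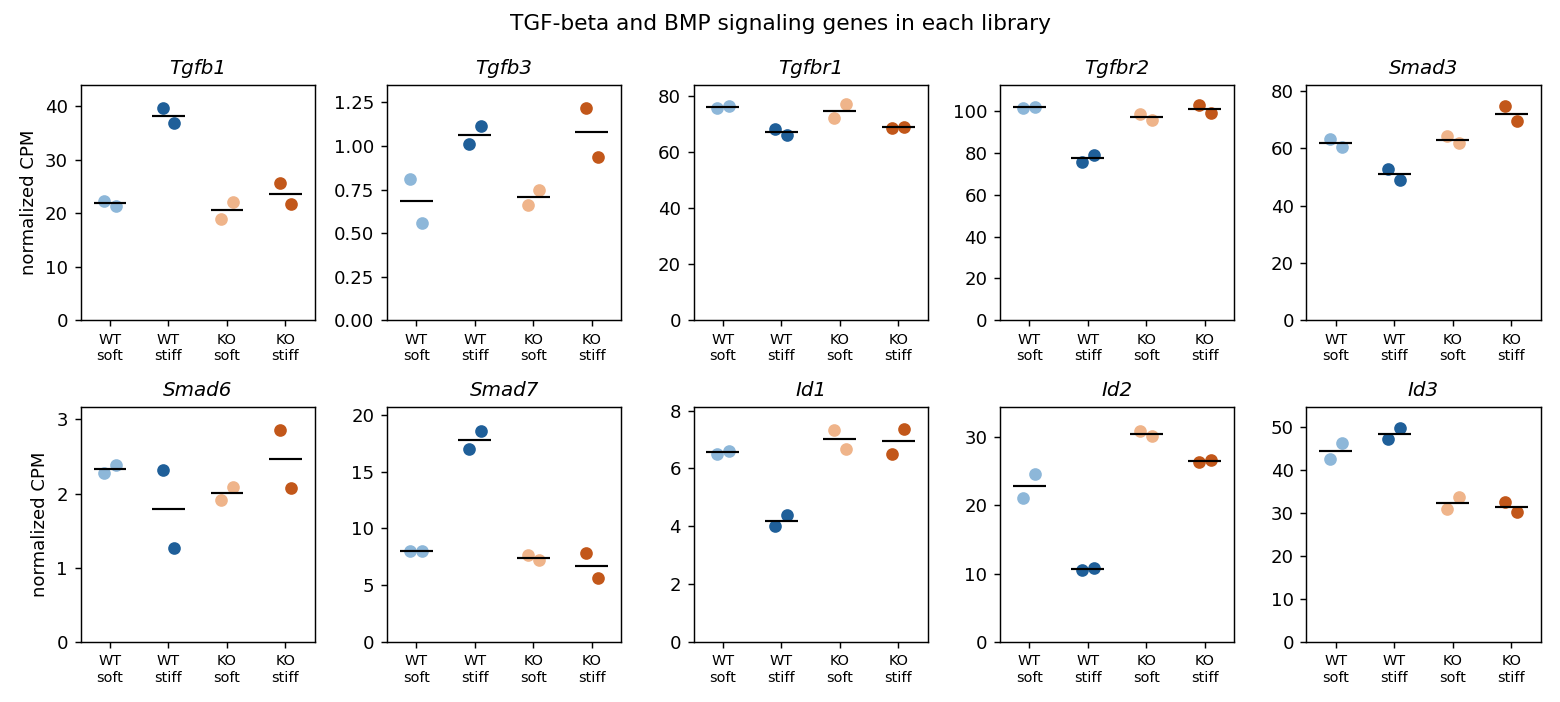
Normalized CPM (y axis, from 0) of each of the 10 genes, 1 panel a gene, with 1 point for each library and the 4 groups along the x axis. Tgfb1 and Smad7 are highest in the WT stiff libraries, and Id1 and Id2 are lowest there.

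Tgfb1 (ENSMUSG00000002603, chromosome 7) encodes the main TGF-beta ligand of the injured liver. It stood at 22.3 and 21.4 CPM in WT soft, 39.7 and 36.9 in WT stiff, 18.9 and 22.2 in KO soft, and 25.6 and 21.6 in KO stiff libraries. Both WT stiff libraries lay above the other 6, and the KO soft and KO stiff libraries overlapped. In WT the log2 fold change on stiff hydrogel was 0.81 (SE 0.097, n = 2 per group, edgeR adjusted p = 2.26e-06), a 1.75-fold higher level. In KO it was 0.21 (95% interval -0.0050 to 0.42, edgeR adjusted p = 0.658). The stiffness response was smaller in KO than in WT by 0.60 on the log2 scale (interaction -0.60, SE 0.14, edgeR adjusted p = 0.00324). On stiff hydrogel Tgfb1 was lower in KO than in WT, with a log2 fold change of -0.70 (SE 0.097, edgeR adjusted p = 8.25e-06), and on soft hydrogel the value was -0.098 (95% interval -0.31 to 0.12, edgeR adjusted p = 0.572). The interaction had an absolute log2 value under 0.5, and was no longer called, without KO soft replicate 2 or without KO stiff replicate 2, at -0.49 in both cases.

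Tgfb3 (ENSMUSG00000021253, chromosome 12), a ligand of the same type, had low counts. It was at 0.809 and 0.555 CPM in WT soft, 1.01 and 1.12 in WT stiff, 0.663 and 0.746 in KO soft, and 1.22 and 0.939 in KO stiff libraries. The stiff libraries of each genotype lay above its soft libraries, and the genotypes overlapped on both hydrogels. No comparison was called, and the WT stiff against soft log2 fold change of 0.61 had an SE of 0.43 (edgeR adjusted p = 0.28). Its value is uncertain for another reason: the gene overlaps Ttll5 on the other strand, which had 185 counts on average against 18.9 for Tgfb3, the strand setting of the counting is not given in the sources used here, and 7.98% of its transcript's 64-base windows are shared with other genes.

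Neither receptor gene was called in any comparison. Tgfbr2 (ENSMUSG00000032440, chromosome 9), the ligand-binding type II receptor, was at 101.5 and 102.3 CPM in WT soft, 75.9 and 79.2 in WT stiff, 98.9 and 95.8 in KO soft, and 103 and 99.1 in KO stiff libraries. The 2 WT stiff libraries lay below the other 6. The log2 fold change in WT was -0.39 (SE 0.051, edgeR adjusted p = 5.89e-06) and that of KO against WT on stiff hydrogel 0.38 (SE 0.052, edgeR adjusted p = 5.82e-06), both past the p threshold and under the fold threshold. The interaction of 0.45 (SE 0.072, edgeR adjusted p = 0.000112) was in the same position. Tgfbr1 (ENSMUSG00000007613, chromosome 4), the type I receptor, was at 75.7 and 76.4 CPM in WT soft, 68.1 and 66.0 in WT stiff, 72.2 and 77.1 in KO soft, and 68.6 and 68.9 in KO stiff libraries. Stiff libraries lay below soft libraries in each genotype. Between stiff and soft the log2 value was -0.18 in WT (SE 0.055, edgeR adjusted p = 0.014) and -0.12 in KO (SE 0.055, edgeR adjusted p = 0.658), and their difference of 0.063 had a 95% interval from -0.10 to 0.23 (edgeR adjusted p = 0.598).

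Smad3 (ENSMUSG00000032402, chromosome 9), which carries the TGF-beta signal to the nucleus, was at 63.4 and 60.4 CPM in WT soft, 52.9 and 49.0 in WT stiff, 64.2 and 61.7 in KO soft, and 74.8 and 69.6 in KO stiff libraries. On stiff hydrogel the WT libraries were the lowest and the KO libraries the highest of the 8, while on soft hydrogel the genotypes overlapped. Stiff against soft gave a log2 value of -0.28 in WT (SE 0.063, edgeR adjusted p = 0.00143) and 0.20 in KO (SE 0.061, edgeR adjusted p = 0.579), with an interaction of 0.48 (SE 0.088, edgeR adjusted p = 0.000397) that lay under the fold threshold. Between KO and WT on stiff hydrogel it was 0.50 (SE 0.062, edgeR adjusted p = 2.14e-06). That call rests on the fold threshold, since the value ranged from 0.44 to 0.56 and dropped under it in 11 of 17 alternatives.

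Smad7 (ENSMUSG00000025880, chromosome 18), the inhibitor of TGF-beta receptors, was one of the genes that rose on stiff hydrogel in WT. Its CPM was 8.01 and 8.00 in WT soft, 16.97 and 18.5 in WT stiff, 7.61 and 7.21 in KO soft, and 7.82 and 5.58 in KO stiff libraries. The 2 WT stiff libraries stood above the other 6, whose range was 5.58 to 8.01. In WT Smad7 was 2.22-fold higher on stiff hydrogel (log2 1.15, SE 0.14, edgeR adjusted p = 3.73e-06). In KO the log2 fold change was -0.14 (95% interval -0.48 to 0.19, edgeR adjusted p = 0.844), and the interaction was -1.29 (SE 0.21, edgeR adjusted p = 0.000144). On stiff hydrogel KO lay below WT by a log2 fold change of -1.40 (SE 0.15, edgeR adjusted p = 2.56e-07).

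Smad6 (ENSMUSG00000036867, chromosome 9), the inhibitory SMAD of the BMP branch, was at 2.27 and 2.39 CPM in WT soft, 2.31 and 1.27 in WT stiff, 1.91 and 2.09 in KO soft, and 2.86 and 2.08 in KO stiff libraries. The soft and stiff groups of each genotype overlapped, as did the genotypes on stiff hydrogel, and no comparison was called. For stiff against soft in WT the log2 value was -0.37, with a wide 95% interval from -1.01 to 0.28 (edgeR adjusted p = 0.368). That value rests on single libraries, since it was -0.86 without WT stiff replicate 1 and -0.0051 without WT stiff replicate 2.

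Id2 (ENSMUSG00000020644, chromosome 12) was lower on stiff hydrogel in WT. It stood at 21.1 and 24.5 CPM in WT soft, 10.5 and 10.9 in WT stiff, 30.9 and 30.2 in KO soft, and 26.4 and 26.7 in KO stiff libraries. No groups overlapped, and WT stiff was the lowest. In WT the level on stiff hydrogel was 0.471 of that on soft (log2 -1.09, SE 0.10, edgeR adjusted p = 7.77e-08). In KO the log2 fold change was -0.20 (SE 0.088, edgeR adjusted p = 0.634), and the interaction was 0.88 (SE 0.13, edgeR adjusted p = 6.21e-05). KO against WT gave a log2 fold change of 1.31 on stiff (SE 0.0996, edgeR adjusted p = 2.92e-09) and 0.43 on soft hydrogel (SE 0.089, edgeR adjusted p = 0.00199), the latter under the fold threshold.

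Id1 (ENSMUSG00000042745, chromosome 2), the Id gene most used as a BMP readout, was at 6.51 and 6.61 CPM in WT soft, 4.002 and 4.37 in WT stiff, 7.34 and 6.66 in KO soft, and 6.51 and 7.36 in KO stiff libraries. The 2 WT stiff libraries lay below the other 6, and KO soft and KO stiff overlapped. The log2 fold change in WT was -0.65 (SE 0.17, edgeR adjusted p = 0.00429), that in KO -0.017 (95% interval -0.34 to 0.31, edgeR adjusted p = 0.987), and that of KO against WT on stiff hydrogel 0.73 (SE 0.17, edgeR adjusted p = 0.00128). The interaction of 0.63 (SE 0.23, edgeR adjusted p = 0.0447) was close to the p threshold, and it was lost in 10 of 16 alternatives, among them DESeq2 (adjusted p = 0.201) and 7 of the 8 that leave out 1 library, with adjusted p from 0.0436 to 0.201 over all alternatives. It kept its direction in all of them.

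Id3 (ENSMUSG00000007872, chromosome 4) differed from the other Id genes. Its CPM was 42.6 and 46.2 in WT soft, 47.0 and 49.6 in WT stiff, 30.9 and 33.6 in KO soft, and 32.6 and 30.1 in KO stiff libraries. All KO libraries lay below all WT libraries, WT stiff lay above WT soft, and KO soft and KO stiff overlapped. Stiff against soft, the log2 value was 0.12 in WT (SE 0.072, edgeR adjusted p = 0.181) and -0.039 in KO (SE 0.076, edgeR adjusted p = 0.931). KO against WT it was -0.46 on soft (SE 0.073, edgeR adjusted p = 0.000154), under the fold threshold, and -0.62 on stiff hydrogel (SE 0.074, edgeR adjusted p = 1.19e-06). The interaction of -0.16 had a 95% interval from -0.38 to 0.056 (edgeR adjusted p = 0.267), so the KO difference was not shown to depend on stiffness.

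**Figure D3:**
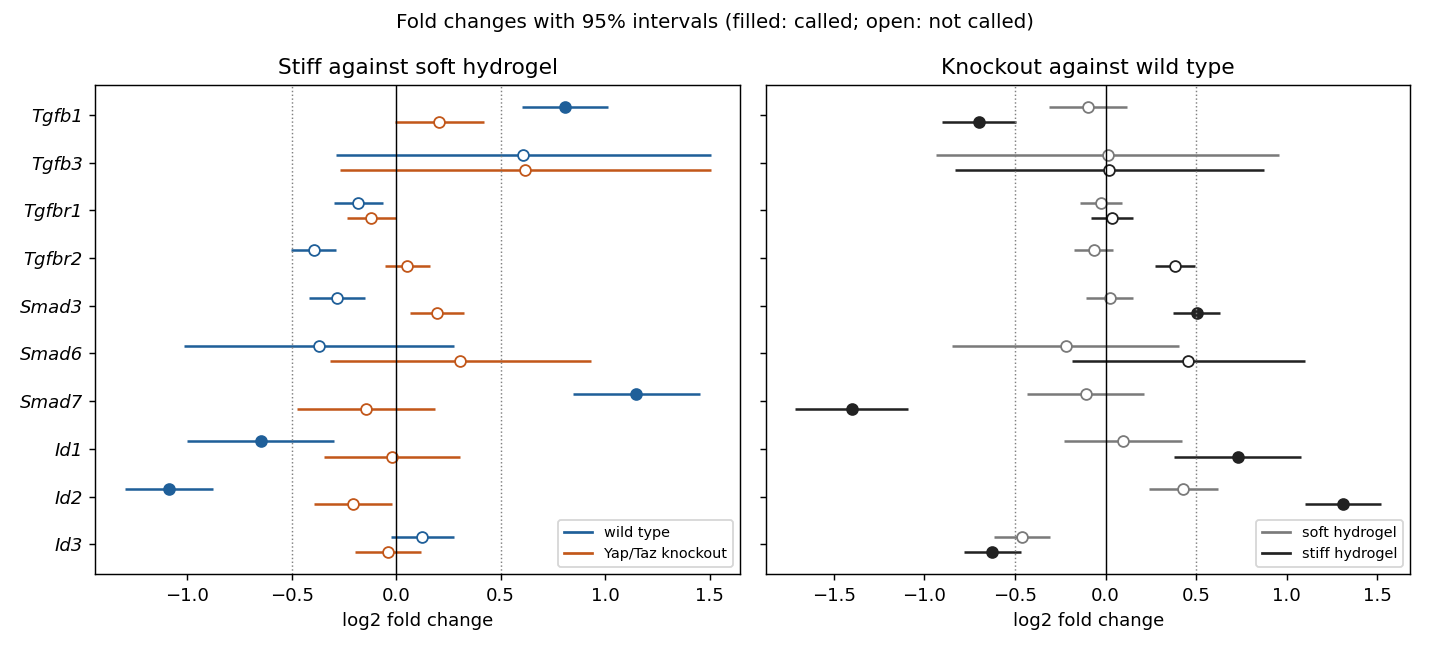
Log2 fold changes with 95% intervals for the 10 genes, in the left panel stiff against soft for WT and KO and in the right panel KO against WT on soft and stiff hydrogel, with filled points for called values. Smad7 lies at 1.15 and Id2 at -1.09 in WT, and both KO values lie nearer to 0.

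The called genes moved together with markers of other cells in some cases and against them in others. In WT on stiff hydrogel, where Id1 and Id2 fell, 6 of 11 endothelial and 6 of 11 Kupffer cell markers were also called lower and 0 higher, and 4 of 12 stellate cell markers lower and 2 higher. In KO against WT on stiff hydrogel, where Id1, Id2 and Smad3 were higher, 10 of 11 endothelial, 10 of 11 Kupffer cell and 7 of 12 stellate cell markers were called higher, with 2 stellate cell markers lower. Tgfb1 and Smad7 moved in the opposite direction to these 3 lists in both comparisons, as did Id3 in the second. Of the 8 cholangiocyte markers, 1 was called higher (Krt19) and 1 lower in WT on stiff hydrogel, and 2 lower and 0 higher (Krt19 and Spp1 lower) in KO against WT on stiff hydrogel, the direction of Tgfb1, Smad7 and Id3. Of the 9 hepatocyte markers, 4 (Tat, Cyp2e1, Hnf4a and Asgr1) were called lower and 0 higher in WT on stiff hydrogel, the direction of Id1 and Id2. In KO against WT on stiff hydrogel the same 4 were called higher, and 2 (Alb and Cps1) lower. The part of these shifts in the results for Tgfb1, Smad3, Smad7, Id1, Id2 and Id3 was not tested.

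Levels can be compared between genes only per kb of gene length. By that measure Id3 was the highest of the 10 in every group, at 24.8 ± 1.44 CPM per kb in WT soft, 27.0 ± 1.02 in WT stiff, 18.004 ± 1.09 in KO soft and 17.5 ± 0.971 in KO stiff (SD, n = 2). Tgfb3 was the lowest and Smad6 the second lowest in all 4 groups. Tgfb1 was the seventh in WT soft at 4.34 ± 0.134 CPM per kb and the fifth in WT stiff at 7.60 ± 0.399, while Id2 was the fifth in WT soft at 9.36 ± 1.01 and the second in KO soft at 12.5 ± 0.209. Neighbours in the order had overlapping libraries for Tgfbr2 and Smad3, and for Smad7 and Id1, in WT stiff, for Tgfbr2, Tgfbr1 and Smad3 in KO soft, and for Smad3 and Tgfbr2 in KO stiff.

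The genes whose profiles over the 8 libraries lay nearest, by the root mean square difference of centred log2 CPM, were Elf4 for Tgfb1 (0.060) and Dusp14 for Smad7 (0.076). For Id1 the nearest gene was Ankle2 (0.047), for Id2 9130016M20Rik (0.084) and for Id3 Sdr42e1 (0.044).

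Promoter sequence was looked at because Id2 and Id3, from the same gene family, moved differently. RefSeq entries (GRCm38.p6) were at hand for 7 of the 10 genes, and Tgfb3, Smad7 and Id1 had none here. The 250 bases before the annotated start were searched on both strands, and no matches overlap in the windows shown. The elements were the SMAD-binding element CAGAC, the palindromic SMAD-binding element GTCTAGAC, the GC-rich SMAD element GGCGCC and the TEAD element CATTCC. Of 32851 promoter windows of this length, 42.2% hold CAGAC, 0.167% GTCTAGAC, 9.59% GGCGCC and 12.6% CATTCC. Smad3 had 0 matches in its window. The Tgfb1 window also had 0, but the bases right after it were not found in the Tgfb1 transcript used as a check, so it may not precede that transcript's start. Id2 lies on the minus strand at chr12:25096093-25096342 and holds GGCGCC at position -231 from the start. Id3 lies on the plus strand at chr4:136143572-136143821 and holds CATTCC at -203, CAGAC at -167 and its reverse complement GTCTG at -68. Capitals mark these matches, which are a description of letters and not of binding.
Id2: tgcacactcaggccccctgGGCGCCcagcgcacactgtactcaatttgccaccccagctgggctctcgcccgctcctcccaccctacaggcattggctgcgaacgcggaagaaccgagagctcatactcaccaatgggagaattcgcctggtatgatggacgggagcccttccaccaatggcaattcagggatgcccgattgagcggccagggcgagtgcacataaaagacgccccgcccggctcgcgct
Id3: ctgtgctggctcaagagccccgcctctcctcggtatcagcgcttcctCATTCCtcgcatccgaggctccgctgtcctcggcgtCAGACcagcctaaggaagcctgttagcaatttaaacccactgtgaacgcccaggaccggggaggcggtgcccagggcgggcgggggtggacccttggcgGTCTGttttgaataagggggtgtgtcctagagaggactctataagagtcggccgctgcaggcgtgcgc

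Over the 10 genes the median log2 fold change in WT was -0.23, against -0.0087 over all tested genes, and the median absolute value 0.50, against 0.27. In KO the median absolute value was 0.17, against 0.092. Between KO and WT the median absolute value was 0.098 on soft hydrogel, against 0.16, and 0.56 on stiff hydrogel, against 0.34.

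The rest of the pathway was described from a list of 85 further genes, of which 74 were tested. In WT, 26 of the 74 were called between stiff and soft, 17 higher and 9 lower, beside the 19.3% of all tested genes. In KO 0 were called, beside 0.0210% of all tested genes, with 8 at an unadjusted p under 0.05 by edgeR and 0 called by DESeq2. The interaction was called for 23 (9 higher, 14 lower), beside 16.8% of all tested genes. Between KO and WT, 15 were called on soft (4 higher, 11 lower, beside 6.67%) and 36 on stiff hydrogel (15 higher, 21 lower, beside 28.7%).

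By role, the WT response was called for 7 of 15 ligands (5 higher), 5 of 12 receptors and co-receptors (4 lower), 5 of 14 extracellular regulators (4 higher), 1 of 14 intracellular regulators and 8 of 14 transcriptional targets (6 higher), beside 19.3% of all tested genes (10.0% higher, 9.26% lower). The 5 other SMAD transducers (Smad1, Smad2, Smad4, Smad5 and Smad9) had 0 called in WT by edgeR, with 3 at an unadjusted p under 0.05. Smad2 was called lower in KO on stiff hydrogel, with a log2 fold change of -0.52.

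Of the transcriptional targets, Ccn2, a matricellular protein gene known as a target of both TGF-beta and YAP/TAZ, was at 41.7 and 38.4 CPM in WT soft, 398.6 and 402.4 in WT stiff, 14.3 and 12.4 in KO soft, and 12.8 and 13.2 in KO stiff libraries. WT stiff stood above WT soft, and both above all KO libraries. The log2 fold change was 3.32 in WT (SE 0.060, edgeR adjusted p = 2e-17), and KO against WT it was -1.58 on soft and -4.94 on stiff hydrogel. Klf10, an early TGF-beta response gene, went the other way in WT, with a log2 fold change of -1.01 (SE 0.065, edgeR adjusted p = 5.13e-10).

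Tgfb2, another TGF-beta ligand, was at 14.7 and 12.6 CPM in WT soft, 56.7 and 56.9 in WT stiff, 3.63 and 3.63 in KO soft, and 2.90 and 2.77 in KO stiff libraries. The WT groups did not overlap each other or the KO libraries. KO against WT gave a log2 fold change of -1.92 on soft and -4.32 on stiff hydrogel, and the interaction was -2.40. Tgfb2 overlaps the non-coding gene Gm35546 on the other strand, whose mean count was 36.3% of its own. Bmp2, a BMP ligand made in liver mainly by endothelial cells, was at 6.39 and 4.72 CPM in WT soft, 2.12 and 1.88 in WT stiff, 9.835 and 8.95 in KO soft, and 10.1 and 10.4 in KO stiff libraries. It was lowest in WT stiff, as the endothelial marker sum was. Its log2 fold change was -1.49 in WT (SE 0.20, edgeR adjusted p = 9.16e-06) and 2.35 for KO against WT on stiff hydrogel (SE 0.19, edgeR adjusted p = 7.18e-09). The part of endothelial cells in the Bmp2 values was not tested.

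Thbs1, an activator of latent TGF-beta, rose in WT by 2.19 on the log2 scale (SE 0.077, edgeR adjusted p = 1.22e-13) and was lower in KO by -1.77 on soft and -3.85 on stiff hydrogel. Tgfbr3, the co-receptor betaglycan, was higher in KO, with a log2 fold change of 0.66 on soft and 1.91 on stiff hydrogel. Dcn, a proteoglycan that binds TGF-beta and is made by stellate cells and fibroblasts, was also higher in KO, at 0.57 on soft and 1.502 on stiff hydrogel. Dcn is itself in the stellate cell and fibroblast marker list, so its agreement with that sum is partly built in. Tgfbr3 was higher in KO, as the stellate cell, endothelial and Kupffer cell marker sums all were. The part of other liver cells in these values was not tested.

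**Figure D4:**
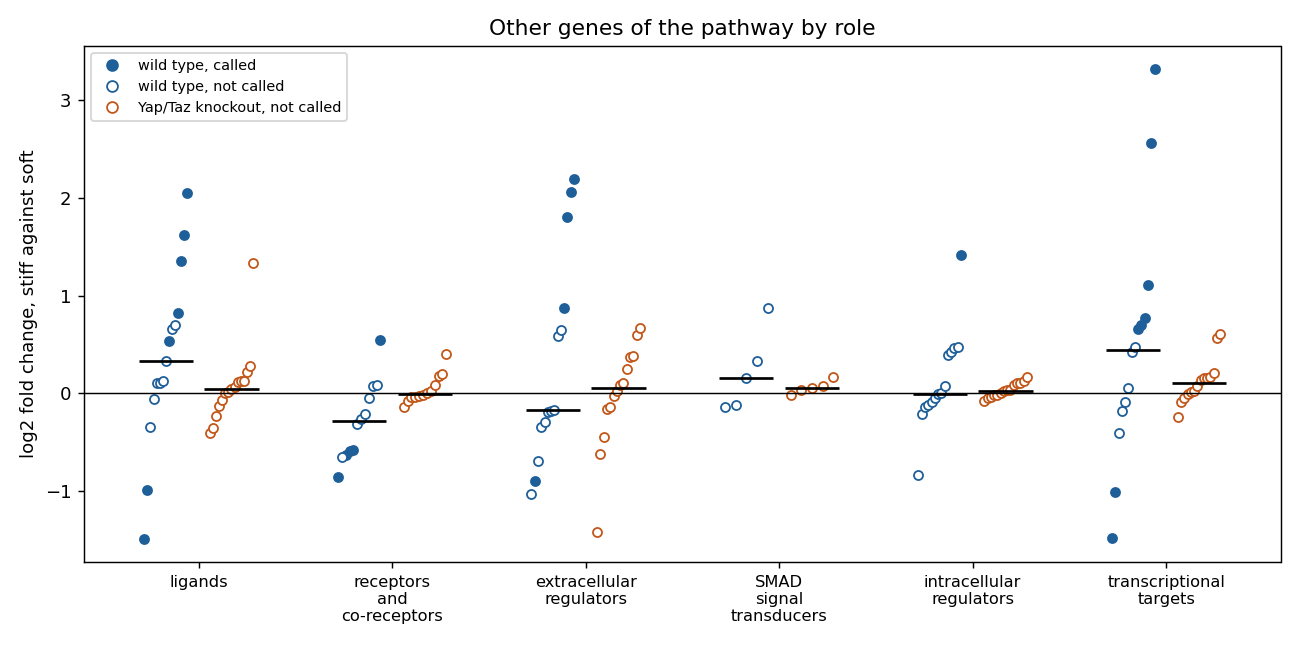
Log2 fold change of stiff against soft hydrogel (y axis) for the 74 tested pathway genes by role, WT in blue and KO in orange, filled where called, with a bar at each median. Ccn2 is the highest WT point, at 3.32, Bmp2 the lowest at -1.49, and no KO point is filled.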

How the data were processed

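Polyadenylated RNA of 8 libraries, 2 in each of 4 groups, was sequenced. The authors deposited a table of raw read counts per gene, made with featureCounts after HISAT2 (2.0.5) alignment. The submitters' processing notes name the build mm9 and also DESeq2 (1.20.0), edgeR (3.22.5) and GATK (4.1.4.1). The table's positions matched a GRCm38 annotation for 1 of the 10 genes (1435 of 52073 genes overall), so the build was not settled and only chromosomes are given. The counting's strand setting is not given in the sources used here. Totals were 18324083 to 26442310 counts, and limits cover counting error only.

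Groups came from the titles. In R (4.3.3), edgeR (4.0.16) was run on all 8 libraries in 1 model of 4 groups with 4 residual degrees of freedom before moderation, after filterByExpr and scaling by trimmed means of M values (0.978 to 1.02). Adjusted p-values are Benjamini-Hochberg, and intervals are 95%. The 10 genes, the pathway list and the marker lists were chosen with earlier results of these data known, and support nothing beyond their own values. Named pathway genes were the 3 with the largest called log2 fold change in each direction of a comparison, with a mean count of at least 50. Outside the interaction, the libraries of the groups compared also had to show no overlap, so that feature was fixed by the rule. A gene this rule names is not reported here. Other pathway genes were named after their values were seen. In data simulated with 200 genes changed by 1 on the log2 scale, edgeR recovered 75.5% for the WT comparison and 77.5% for the KO comparison among 14279 genes, with 11 and 7 other calls. DESeq2 (1.42.0) was an alternative.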

Additional observations from a re-analysis of the deposited data

Results flagged for a closer look

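The response to stiff against soft hydrogel differed between KO and WT by a test of the difference itself, the interaction term of edgeR's quasi-likelihood model, for 4 genes. For Tgfb1 the difference on the log2 scale was -0.60 (SE 0.14, adjusted p = 0.00324), since Tgfb1 was called higher on stiff hydrogel in WT and not in KO. For Smad7 the difference was -1.29 (SE 0.21, adjusted p = 0.000144), with 2 of 2 WT stiff libraries above all 6 others. For Id1 it was 0.63 (SE 0.23, adjusted p = 0.0447) and for Id2 0.88 (SE 0.13, adjusted p = 6.21e-05), with 2 of 2 WT stiff libraries below all 6 others in each case. The Tgfb1 and Id1 calls were lost under some alternatives, for Id1 among them DESeq2 (adjusted p = 0.201). Tgfbr2 (0.45) and Smad3 (0.48) passed the p threshold and not the fold threshold. No cause was tested for any of these differences.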

How the results depend on the processing

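Of 50 values (10 genes in 5 comparisons), 14 were called, 0 of these changed direction under any alternative, and with the thresholds kept 3 lost the call under at least 1 alternative (Tgfb1 and Id1 in the interaction, and Smad3 in KO against WT on stiff hydrogel). With no minimum fold, 7 of the 10 genes were called in WT between stiff and soft (41.0% of all tested genes) and 2 in KO against WT on soft hydrogel (18.4%). A threshold of 1 on the absolute log2 fold change removed 9 of the 14 calls, leaving 2 of the 10 genes in WT (8.71% of all tested genes), 1 in the interaction (7.28%) and 2 in KO against WT on stiff hydrogel (14.7%). For the pathway list, the same threshold left 13 of 74 in WT, 15 in the interaction and 7 in KO against WT on soft hydrogel (2.47% of all tested genes), where no minimum fold gave 25. Over all alternatives, the interaction ranged from -0.73 to -0.49 for Tgfb1, 0.53 to 0.71 for Id1 and 0.42 to 0.52 for Smad3. Tgfb1 and Smad3 thus crossed the fold threshold, Smad3 from below. KO against WT on soft hydrogel ranged from 0.32 to 0.54 for Id2 and from -0.52 to -0.40 for Id3, which also crossed it from below. Uncalled values changed sign for 9 results, and the cause was not tested. With 1 library left out, KO stiff against soft ranged from -0.41 to 0.068 for Smad7, from -0.12 to 0.066 for Id1 and from -0.11 to 0.017 for Id3. KO against WT on soft hydrogel ranged from -0.22 to 0.017 for Tgfb1, -0.20 to 0.34 for Tgfb3, -0.076 to 0.020 for Tgfbr1 and -0.0086 to 0.064 for Smad3. For Tgfb3 it ranged from -0.19 to 0.18 on stiff hydrogel and from -0.33 to 0.21 in the interaction. The Tgfb3 interaction was -0.023 with DESeq2, -0.0016 with DESeq2's size factors in edgeR, -0.011 with no filter and -0.0064 with the replicate block, and Tgfbr1 in KO against WT on soft hydrogel was 0.028 with scaling by library size alone. Samples of the same replicate number did not deviate together over all tested genes (correlations -0.101 to 0.042). These correlations weigh low-count genes like all others, so they cannot settle whether such samples share a mouse or preparation. With the replicate block, 3 of the 10 genes were called in the interaction in place of 4, beside 2330 of all 14279 tested genes. The gene lost was Id1 (edgeR adjusted p = 0.0589). In WT 4 were called (2705 of all tested genes) and in KO 0 (3 of all). In KO against WT 0 were called on soft (895 of all) and 6 on stiff hydrogel (4071 of all). Low counts limit Tgfb3 and Smad6 most. A lone library left in a group was assumed to vary like the other groups.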

Other observations

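Genes of the pathway from BMP to hepcidin gave values not described above, and apart from Hamp they were picked after their values were seen. Hamp, which encodes hepcidin, was at 5.35 and 4.999 CPM in WT soft, 1.93 and 1.78 in WT stiff, 5.03 and 4.53 in KO soft, and 4.12 and 3.95 in KO stiff libraries. WT stiff lay below the other 6 libraries. The log2 fold change in WT was -1.48 (SE 0.21, edgeR adjusted p = 1.19e-05), and the interaction was 1.23 (SE 0.28, edgeR adjusted p = 0.00235). Hamp shares 8.36% of its transcript's 64-base windows with Hamp2, so reads could be split between them.

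Hjv, the BMP co-receptor hemojuvelin, and Neo1, the receptor neogenin that binds it, were both lower in WT on stiff hydrogel. Hjv had a log2 fold change of -0.58 (SE 0.064, edgeR adjusted p = 8.11e-07) and an interaction of 0.60. Neo1 had -0.63 (SE 0.055, edgeR adjusted p = 3.87e-08) and 0.63. Of the other receptors and co-receptors, Tgfbr3 (-0.86, edgeR adjusted p = 0.00469) and Eng (-0.59, edgeR adjusted p = 0.0038) were also called lower in WT on stiff hydrogel. Eng is itself in the endothelial marker list. Acvr1 was higher in WT on stiff hydrogel, at 0.55 (SE 0.092, edgeR adjusted p = 0.000103), with an interaction of -0.59. Bmpr1a (-0.046) and Bmpr2 (0.075) were not called in WT. Bmp6, the ligand best known for inducing hepcidin, had a log2 fold change of 0.54 in WT (SE 0.15, edgeR adjusted p = 0.00636). Its interaction of -0.535 (edgeR adjusted p = 0.0633) was not called. In KO against WT on stiff hydrogel Bmp6 was called lower, at -0.52 (SE 0.15, edgeR adjusted p = 0.00611). Its reads are uncertain, because it overlaps Txndc5 on the other strand, which had 5081 counts on average against 158 for Bmp6.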
